A study of Bos taurus with 13 samples.

Results

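Lymphocyte genes were examined in the testis of 13 newborn bull calves: CD2, CD3D, CD3E, CD4, CD8A and GZMB for T or cytotoxic cells, and CD79A, CD79B, MS4A1 and JCHAIN for B or plasma cells. They are 10 of the 18087 genes that the arrays measured with a probe set carrying a single gene symbol. Each gene was taken from its probe set with the highest mean over the 13 arrays, and each of the 10 had exactly 1 such probe set. The dams were Angus cross cows, 8 assigned to each of 3 treatments, that ate a vitamin and mineral mix with 35 ppm of selenium at will from 4 months before breeding until calving. The calves of Mix dams (n = 4) had selenium supplied as 50% sodium selenite and 50% Sel-Plex, an organic selenium product. The calves of OSe dams (n = 4) had Sel-Plex alone, and those of ISe dams (n = 5) had sodium selenite alone. All 3 groups shared the basal mix and its selenium content, so no calf came from an unsupplemented dam. Testis was taken within 2 days of birth and each calf had its own Affymetrix array.

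T cells recognise antigen through a receptor that reaches the cell surface only together with the CD3 chains, which carry the signal inward. The co-receptors CD4 and CD8 divide helper from cytotoxic cells, and the granules of cytotoxic T cells and natural killer (NK) cells hold the protease granzyme B, made from GZMB. In B cells the chains CD79A and CD79B carry the signal of the antigen receptor, MS4A1 encodes the surface protein CD20, and the J chain made from JCHAIN links antibody units in plasma cells. In the adult rat testis, macrophages are the most numerous leukocytes of the tissue between the tubules, T cells are scattered there, and B cells are rarely seen.

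Values are deposited log2 levels per probe set, so a difference of 1 is a doubling. Probe sets bind with different strength, so a level is compared between calves for 1 gene and never between genes. Where the summed level of a list is given, linear values were added over its genes, so its brightest probe sets weigh most. The array medians lay between 7.61 and 7.65, except for OSe animal 2 at 7.74. The correlation between any pair of arrays was 0.979 to 0.991 over the 26773 probe sets. No signal over background could be computed, and a mean above the 25th percentile of all probe set means (6.26) was used only to describe how bright a probe set was. In whole tissue, fewer cells of a type and less RNA per cell cannot be told apart.

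The brightness of the member probe sets is described first, and it does not by itself show that lymphocytes were present. All 6 T or cytotoxic members lay above the 25th percentile, with means over 13 calves of 6.61 (CD2), 7.10 (CD4), 7.45 (GZMB), 8.68 (CD8A), 9.54 (CD3D) and 10.31 (CD3E). Of the B or plasma members, CD79B averaged 6.50, MS4A1 7.32 and CD79A 8.32. JCHAIN averaged 6.16, the only member below the 25th percentile, so a plasma cell signal rests on a dim probe set. The CD3 genes varied together from calf to calf, and no pair of B or plasma members passed the test of correlation described below. MS4A1 had a median correlation of 0.664 with 8 germ cell genes and 0.123 with 19 B cell genes, also described below.

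CD3E, the epsilon chain of the CD3 complex, read 10.57, 9.88, 10.39 and 10.29 in Mix animals 1 to 4, 10.37, 10.52, 10.56 and 9.88 in OSe animals 1 to 4, and 9.92, 10.39, 10.65, 10.17 and 10.43 in ISe animals 1 to 5. Every group held a calf below 10 and a calf above 10.4, so the groups overlapped over most of their range. The spread over all calves was 0.77, or 1.70-fold, and its SD of 0.27 was larger than that of 79.7% of all probe sets.

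CD3D, the delta chain, read 10.03, 9.14, 9.63 and 9.45 in the Mix calves, 9.55, 9.67, 9.73 and 9.03 in the OSe calves, and 9.34, 9.65, 9.75, 9.52 and 9.59 in the ISe calves. Mix animal 1 was highest and OSe animal 4 lowest, a 2.00-fold range. CD8A, the alpha chain of the cytotoxic co-receptor, read 9.24, 8.26, 8.80 and 8.58 in the Mix calves, 8.76, 8.81, 8.63 and 8.28 in the OSe calves, and 8.67, 8.88, 8.43, 8.67 and 8.82 in the ISe calves. Its extremes, 1.98-fold apart, were both Mix calves. In each of these genes the SD was larger in Mix (0.37 for CD3D and 0.41 for CD8A) than in ISe (0.15 and 0.17), a difference in spread that was not tested.

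GZMB read 7.43, 7.31, 6.93 and 7.35 in the Mix calves, 7.28, 7.43, 7.38 and 7.93 in the OSe calves, and 7.53, 7.62, 7.60, 7.63 and 7.46 in the ISe calves. Every Mix calf lay below every ISe calf, while the OSe calves reached from inside the Mix range to the highest value of all, in OSe animal 4. That animal was the lowest for CD3D.

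CD4, the helper co-receptor, read 7.32, 7.08, 7.18 and 7.05 in the Mix calves, 6.75, 7.45, 7.19 and 6.94 in the OSe calves, and 6.93, 7.17, 7.04, 7.11 and 7.04 in the ISe calves. Both extremes were OSe calves, and the highest was animal 2, the array with the high median. CD2, an adhesion receptor of T and NK cells, read 6.69, 6.60, 6.51 and 6.71 in the Mix calves, 6.51, 6.52, 6.68 and 6.49 in the OSe calves, and 6.42, 6.52, 6.89, 6.57 and 6.87 in the ISe calves. Its range of 1.38-fold was the narrowest of the 10 members, and the ISe calves held both ends of it.

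CD79A, a signalling chain of the B cell receptor, read 8.72, 8.29, 8.35 and 8.39 in the Mix calves, 8.20, 8.16, 8.21 and 8.05 in the OSe calves, and 8.17, 8.47, 8.42, 8.34 and 8.33 in the ISe calves. All Mix calves lay above all OSe calves, and the ISe calves overlapped both. Its partner chain CD79B read 6.75, 6.44, 6.43 and 6.81 in the Mix calves, 6.44, 6.79, 6.48 and 6.43 in the OSe calves, and 6.21, 6.57, 6.45, 6.37 and 6.39 in the ISe calves. The 3 groups overlapped for CD79B, with Mix animal 4 highest and ISe animal 1 lowest.

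MS4A1 read 7.29, 7.59, 7.63 and 7.56 in the Mix calves, 7.48, 7.26, 7.22 and 7.11 in the OSe calves, and 6.96, 7.33, 6.88, 7.81 and 7.10 in the ISe calves. The ISe calves held both the lowest and the highest value, 1.91-fold apart, and covered the ranges of the other groups. JCHAIN read 6.01, 6.06, 5.88 and 5.99 in the Mix calves, 6.23, 6.22, 6.20 and 6.18 in the OSe calves, and 6.20, 6.20, 6.30, 6.18 and 6.44 in the ISe calves. All 4 Mix calves lay below all 9 others, although the whole range was only 1.48-fold. The within-group SD of JCHAIN was lower than that of all but 5.24% of the probe sets.

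**Figure D1:**
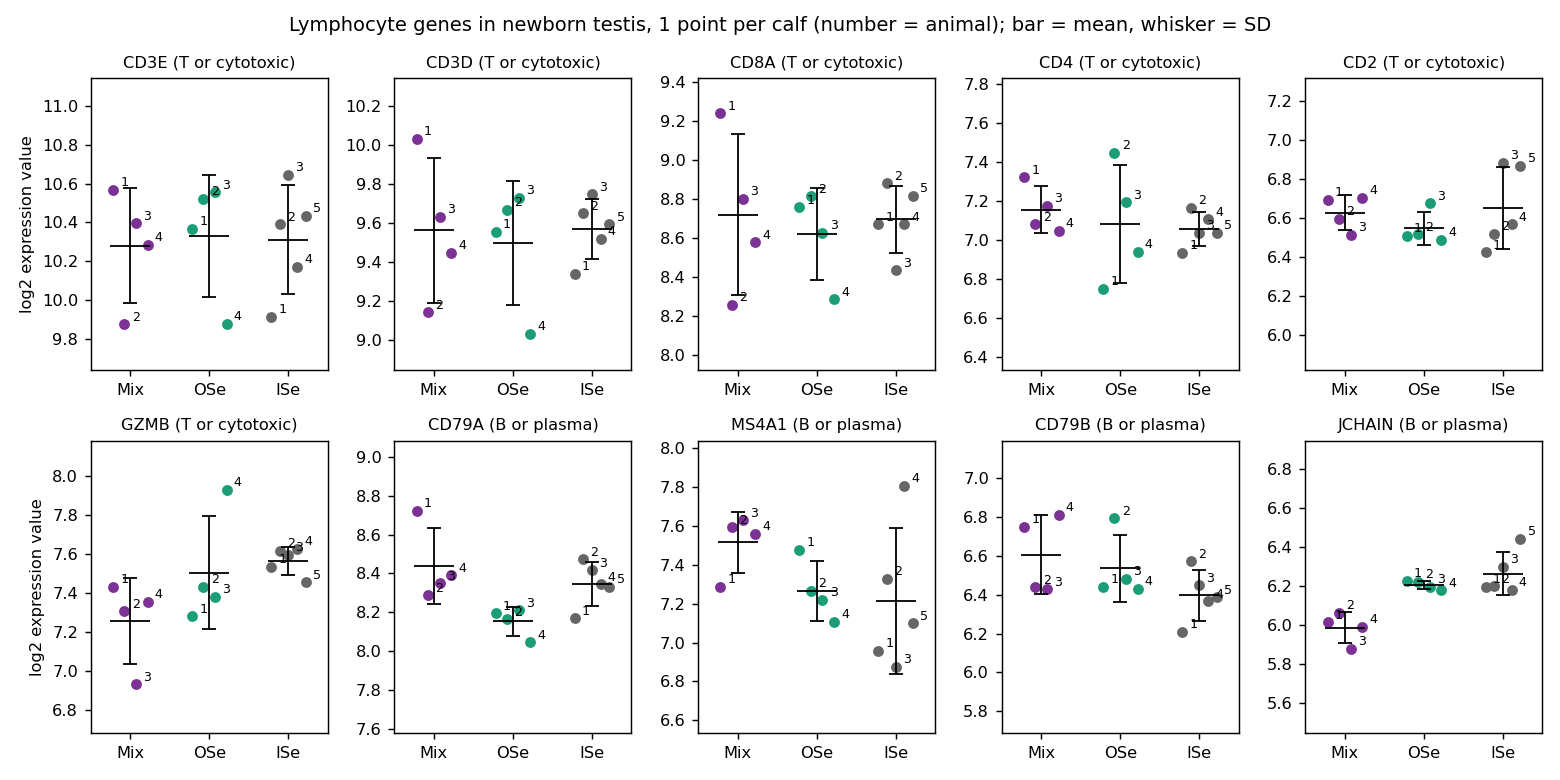
Log2 level of each lymphocyte gene (vertical axis, spanning 1.5 log2 in every panel) in Mix, OSe and ISe calves (left to right), with 1 numbered point per calf, a bar for the group mean and a whisker for the SD. The Mix calves lie below all other calves for JCHAIN (5.88 to 6.06), and the groups overlap for CD3E, CD3D and CD8A.

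No lymphocyte gene differed between the selenium groups past the test across all probe sets. With limma's moderated test and Benjamini-Hochberg adjustment, 0 of the 10 members passed an adjusted p of 0.05 in any of the 3 comparisons or in the F test over the groups, and 0% of the 26773 probe sets did so. The lowest adjusted p of any probe set was 0.291 for Mix minus OSe, 0.967 for Mix minus ISe, 0.9999 for OSe minus ISe and 0.557 for the F test. Before adjustment, a p under 0.05 was reached by 2283 probe sets (8.53%) for Mix minus OSe, 995 (3.72%) for Mix minus ISe, 701 (2.62%) for OSe minus ISe and 1206 (4.50%) for the F test. Without moderation of the variances the adjusted counts were also 0, and 2148, 945, 679 and 1112 probe sets had an unadjusted p under 0.05 in the same order.

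Mix calves had lower JCHAIN and GZMB than ISe calves, without overlap between the calves and without passing the adjusted test. JCHAIN averaged 5.99 ± 0.08 in Mix calves (SD, n = 4) and 6.26 ± 0.11 in ISe calves (SD, n = 5), a difference of -0.28 ± 0.07 (SE; 95% interval -0.43 to -0.12), or 1.21-fold. Its unadjusted p was 0.00191, the 22nd smallest of all probe sets, and its adjusted p was 0.967 in limma. GZMB averaged 7.26 ± 0.22 in Mix calves and 7.57 ± 0.07 in ISe calves, a difference of -0.31 ± 0.13 (SE; 95% interval -0.59 to -0.03), or 1.24-fold, with a limma adjusted p of 0.967. The exact two-sided permutation test gave 0.00794 for each gene, the smallest p that the 126 splits of 5 and 4 calves can give, among 30 such tests of the members. Of the 10 members, 2 therefore had Mix and ISe groups that did not overlap, both lower in Mix, against 1.02% of all probe sets (0.471% lower and 0.549% higher). The same 2 members had an unadjusted p under 0.05, against 2.00% of probe sets lower and 1.71% higher. The GZMB groups came close, at 7.43 in Mix animal 1 and 7.46 in ISe animal 5. Most of the wider cytotoxic and NK cell genes did not share the direction of GZMB. Of 18 measured, 13 were higher in Mix than ISe (median difference 0.07), against 51.5% of all probe sets.

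The other 8 members did not pass even the unadjusted threshold between Mix and ISe. MS4A1 averaged 7.52 ± 0.16 in Mix calves and 7.21 ± 0.37 in ISe calves, a difference of 0.30 ± 0.16 (SE; 95% interval -0.05 to 0.65). CD79B differed by 0.21 ± 0.11 and CD4 by 0.10 ± 0.12. The CD3 and CD8 genes lay closer to 0, at -0.03 ± 0.18 for CD3E (95% interval -0.42 to 0.36), -0.01 ± 0.17 for CD3D and 0.02 ± 0.17 for CD8A. These intervals are wide beside the differences, so a small shift in T cell genes was not detectable with this number of calves.

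Between Mix and OSe calves, CD79A was higher and JCHAIN lower in Mix, without overlap. CD79A averaged 8.44 ± 0.19 in Mix calves and 8.15 ± 0.07 in OSe calves (SD, n = 4 each), a difference of 0.28 ± 0.10 (SE; 95% interval 0.07 to 0.50), or 1.22-fold, with a limma adjusted p of 0.581. JCHAIN averaged 5.99 ± 0.08 in Mix calves and 6.21 ± 0.02 in OSe calves, a difference of -0.22 ± 0.08 (SE; 95% interval -0.38 to -0.06), or 1.16-fold, with the same adjusted p in limma. The exact permutation p was 0.0286 for both, the smallest that 70 splits can give. These 2 members are 1 in each direction, against 4.24% of all probe sets without overlap (1.53% higher and 2.71% lower) and 2.69% higher and 5.83% lower at an unadjusted p under 0.05. MS4A1 differed by 0.25 ± 0.17 and GZMB by -0.25 ± 0.14. The GZMB value was -0.11 without OSe animal 4, its highest calf.

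Between OSe and ISe calves, 0 of 10 members had groups that did not overlap, against 0.743% of all probe sets, and 0 had an unadjusted p under 0.05 in limma. CD79A showed the widest gap, at 8.15 ± 0.07 in OSe calves and 8.35 ± 0.11 in ISe calves, a difference of -0.19 ± 0.09 (SE; 95% interval -0.40 to 0.01). Its unadjusted p was 0.0634 in limma and 0.0317 by the exact permutation test, and its limma adjusted p was 0.9999. CD3E differed by 0.02 ± 0.18 (95% interval -0.37 to 0.41) and JCHAIN by -0.06 ± 0.07. OSe animal 2, the array with the high median, held the highest CD4 and the highest OSe value of CD79B. CD4 differed by 0.03 ± 0.12 with that calf and -0.09 without it, and CD79B by 0.14 ± 0.11 with it and 0.05 without it.

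Ordered by group mean from low to high, JCHAIN and GZMB ran from Mix through OSe to ISe. Of these neighbours, Mix and OSe were apart for JCHAIN by the unadjusted tests, limma's and the exact one, and not after adjustment, and the others did not differ beyond their spread. CD79A ran from OSe through ISe to Mix, where OSe and ISe were apart by the exact unadjusted test and not by limma's, and ISe and Mix by neither. For CD2, CD3D, CD3E, CD4, CD8A, CD79B and MS4A1 no neighbours in the order differed beyond their spread. Over the 6 T or cytotoxic members the median difference was 0.07 for Mix minus OSe, -0.02 for Mix minus ISe and -0.07 for OSe minus ISe. Over the 4 B or plasma members it was 0.16, 0.15 and -0.002 in that order. The medians over all probe sets were -0.02, 0.005 and 0.02.

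**Figure D2:**
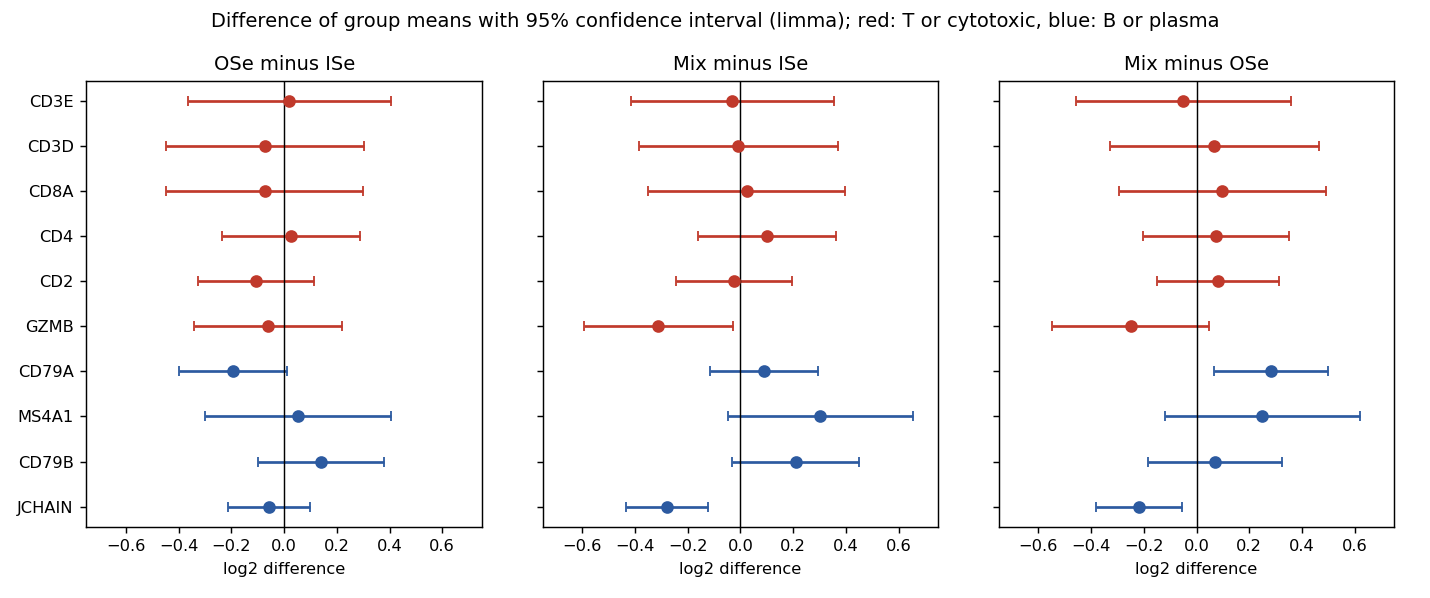
Difference in mean log2 level for each lymphocyte gene in Mix minus OSe, Mix minus ISe and OSe minus ISe (point), with its 95% interval from limma (line). The intervals for JCHAIN exclude 0 in both comparisons with Mix, and those of CD3E reach from -0.46 to 0.41 over the 3 comparisons.

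Granulocyte markers were also apart between Mix and ISe calves, and the part of other cell types in the JCHAIN, GZMB and CD79A values was not tested. The 9 measured granulocyte genes had a summed level of 9.78 to 10.03 in Mix calves, 9.53 to 9.82 in OSe calves and 9.51 to 9.75 in ISe calves, written as the log2 of the sum, and 4 of them lay below the 25th percentile. Of these 9, 8 were higher in Mix than in ISe, with a median difference of 0.18, and 0 passed the adjusted test. The summed level of the 11 macrophage genes overlapped between groups, at 13.06 to 13.62 in Mix, 12.44 to 13.52 in OSe and 12.79 to 13.42 in ISe. C1QB, with a mean of 12.03, weighed most in that sum. Gene by gene, 10 of the 11 were higher in Mix than in ISe, with a median difference of 0.20. The red blood cell genes, a measure of blood in the sample, ran from 9.78 to 10.37 in Mix, 9.62 to 10.75 in OSe and 9.56 to 10.99 in ISe. No probe set of the array read 0, the smallest value being 2.07, so absence of a marker could not be read.

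Across calves, the CD3 genes moved in step. Over 13 calves CD3D and CD3E had a Pearson r of 0.911 (permutation p = 2e-05, adjusted p = 0.0009 over 45 pairs) and a Spearman rho of 0.962 (permutation p = 1e-05, the smallest that 100000 resamples can give, adjusted p = 0.00045). Without OSe animal 4 and Mix animal 2, the calves farthest from the median of CD3D, r was 0.817. Both genes lie side by side with CD3G in the RefSeq annotation of the cattle genome (ARS-UCD2.0). With the group means subtracted, r was 0.928, so the relation was as close within groups.

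CD8A followed CD3D less closely. CD3D and CD8A had an r of 0.794 (permutation p = 0.00177, adjusted p = 0.0398) and a rho of 0.550 (permutation p = 0.0537, adjusted p = 0.412), and r was 0.573 without the same pair of calves. The adjusted p exceeded 0.05 when any of 10 single calves was left out, among them Mix animals 1 to 4, while r itself stayed between 0.686 and 0.921 over all 13 such sets. CD3E and CD8A had an r of 0.578 (adjusted p = 0.255), which was 0.168 without OSe animal 4 and Mix animal 2.

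Mix animal 1 was the highest calf for CD3D, CD8A and CD79A and the second highest for CD3E and CD4. Mix animal 2 was the lowest for CD3E and CD8A and lay above the mean in 0 of the 6 T or cytotoxic genes. GZMB had r of -0.31 to -0.001 with the other 5 T members, and 0 of those pairs passed. The lowest, with CD3D, was -0.03 without OSe animal 4 and Mix animal 2. Of the 15 pairs of T or cytotoxic members, 10 were positive, with a median r of 0.416, and 2 passed the adjusted test by r and 1 by rho.

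No pair of B or plasma members passed the test of correlation. Their 6 pairs had a median r of -0.07 and a range of -0.571 to 0.409, with 0 past the adjusted threshold by r or by rho. At an unadjusted permutation p under 0.05 the count was 1, MS4A1 with JCHAIN. That pair had an r of -0.571 (permutation p = 0.0397, adjusted p = 0.255) and a rho of -0.582. Whether the MS4A1 probe set reads only MS4A1 could not be checked here, since no probe sequences were used, and this limit holds for every MS4A1 value. CD79A and CD79B, partner chains of 1 receptor, had an r of 0.409.

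Between the subsets, 24 pairs had a median r of 0.162 and 0 passed the adjusted test. CD79A was nearest to the T genes, with an r of 0.689 against CD3D (permutation p = 0.0113, adjusted p = 0.170), which was 0.501 without Mix animal 1. With group means subtracted, CD79A correlated with CD3D at 0.848 (adjusted p = 0.00675) and with CD3E at 0.754 (adjusted p = 0.024), both by permutation. CD2 with JCHAIN also passed there, at 0.718 (adjusted p = 0.0457), so that 5 pairs passed in place of 2. These permutations shuffled the centred values over all 13 calves without regard to the group means removed. Their p-values are therefore approximate and can be too small. The centred r of CD2 with JCHAIN was 0.585 without ISe animals 3 and 5.

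**Figure D3:**
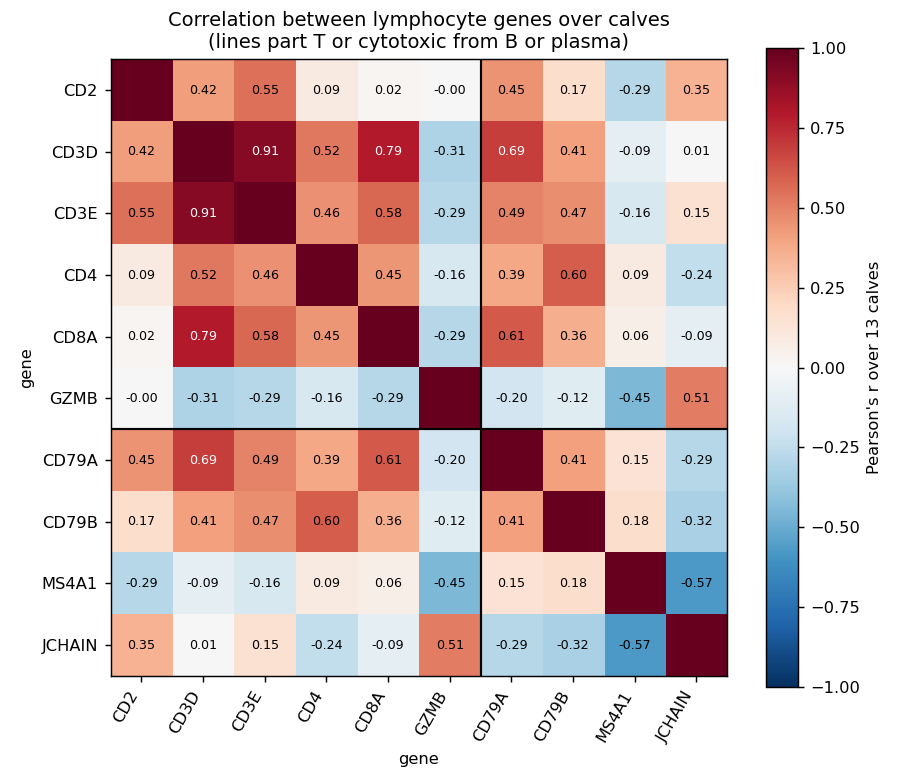
Pearson r between the levels of each pair of lymphocyte genes over 13 calves, with T or cytotoxic genes before B or plasma genes on both axes and colour from negative to positive r. The CD3D and CD3E cell is the strongest at 0.911, and MS4A1 with JCHAIN is the most negative at -0.571.

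**Figure D4:**
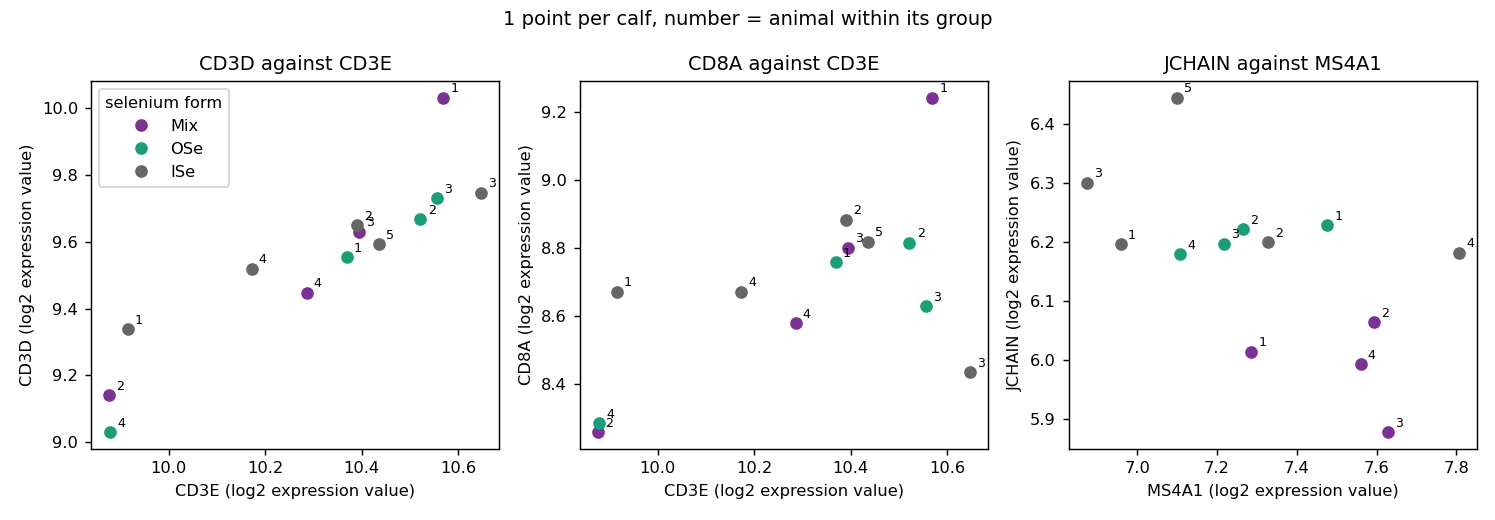
Log2 level of CD3D against CD3E, CD8A against CD3E and JCHAIN against MS4A1, with 1 point per calf and a colour for Mix, OSe and ISe. The CD3 genes fall along a line in all 3 groups (r 0.911), while CD8A scatters more (r 0.578).

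CD3E and MS4A1, the members of each subset with the largest SD, were then set against 167 marker genes of 15 cell type or function lists. This comparison was added after the data were seen, the genes named for it were chosen after their values were seen, and p-values were adjusted over its 334 relations. CD3E passed with 20 genes, 19 of them positively, and MS4A1 with 3. By rho the counts were 16 and 5. The share of all probe sets that would pass such a test was not computed, so these counts have no background beside them. Over all probe sets r fell as low as -0.924 with CD3E and -0.917 with MS4A1, so strong r was not confined to the marker lists.

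Calves high in CD3E were also high in general leukocyte genes and in several other T and cytotoxic genes. Its median r was 0.812 over the 16 pan-leukocyte genes, 9 of which passed, against 0.011 over all probe sets. RAC2, a GTPase of blood cells, had an r of 0.910 (permutation p = 1e-05, the smallest the resamples can give, adjusted p = 0.00251) and a rho of 0.907. ITGAL, an adhesion integrin chain of leukocytes, had an r of 0.916 (adjusted p = 0.00251). PTPRC, which encodes the leukocyte surface protein CD45, had an r of 0.855 (permutation p = 0.00048, adjusted p = 0.0134), and r was 0.681 without Mix animal 2 and OSe animal 4. The exception in direction was CXCR4, a chemokine receptor that other cells also carry, at -0.620.

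Among 25 T cell receptor and signalling genes the median r with CD3E was 0.447 and 5 passed: CD3G, CD7, LCK, UBASH3A and TBX21. Of the 25, 19 had a positive r and the rest a negative one, from -0.495 (FOXP3) to 0.819 (CD3G). CD3G, the third CD3 chain, had an r of 0.819 (permutation p = 0.00074, adjusted p = 0.0177), and LCK, the kinase that starts T cell receptor signalling, had an r of 0.777 (adjusted p = 0.0228). Among 18 cytotoxic and NK cell genes the median was 0.594 and 4 passed: NKG7, CST7, CTSW and CD244. CD244, an NK cell receptor, had an r of 0.903 (adjusted p = 0.00251), and CST7, a granule protease inhibitor, had 0.856 (adjusted p = 0.00459).

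Fewer genes passed with CD3E in the other lists. Of 19 B cell genes the median r was 0.107 and 1 passed, CD37 at 0.864, a membrane protein also found on other leukocytes. The 11 plasma cell genes had a median of -0.30, the 11 macrophage genes 0.514 and the 13 genes of lymphoid attraction and niche 0.362, with 0 passing in each. The medians were -0.26 for Sertoli cells, -0.11 for endothelium, -0.09 for Leydig cells, -0.08 for gonocytes, -0.18 for granulocytes, 0.018 for mast cells and 0.152 for red blood cells. The single negative call was WC1, a scavenger receptor of cattle gamma delta T cells, at -0.734 (adjusted p = 0.0452). The 4 measured genes of that list had a median of 0.092. WC1 did not pass by rho (-0.643, permutation adjusted p = 0.166). By r it passed in 2 of the 13 sets that leave out a calf, and r was -0.480 without Mix animal 2 and OSe animal 4. Its probe set was dim, with a mean of 5.66, below the 6.26 used to describe brightness, and read highest in OSe animal 4. Without OSe animal 4, the calf with the lowest CD3D, 9 genes passed in place of 20, 6 of them pan-leukocyte. The r of each of the 19 positive genes was at least 0.678 whichever single calf was left out, CTSW reaching the lowest value.

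No B cell gene passed with MS4A1. Its r with the 19 B cell genes ran from -0.429 to 0.669, with a median of 0.123 and 15 of them positive. Over the 11 plasma cell genes the median was 0.060. No other B or plasma member was set against the lists. PAX5, a transcription factor that fixes B cell identity, came nearest at 0.669 (permutation adjusted p = 0.109), followed by FCRL1 at 0.580 (permutation adjusted p = 0.208). The median was 0.089 over the T cell genes, 0.154 over the cytotoxic and NK cell genes, 0.019 over the pan-leukocyte genes and -0.08 over the gamma delta T cell genes.

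The 8 germ cell (gonocyte) genes had a median r of 0.664 with MS4A1, against -0.03 over all probe sets, and ranged from 0.210 to 0.752. TDRD1, a germ cell protein of the piRNA pathway, had an r of 0.752 (permutation p = 0.0033, adjusted p = 0.0479) and a rho of 0.703, and r was 0.627 without ISe animals 3 and 4. KIT, a receptor of germ cells and mast cells, had an r of 0.744 (adjusted p = 0.0536). DND1 had 0.721 (adjusted p = 0.061) and DDX4 0.698 (adjusted p = 0.0875), both germ cell RNA-binding proteins. DAZL had 0.630, NANOS3 0.420, UCHL1 0.350 and NANOS2 0.210, with adjusted p of 0.144 or more, and UCHL1 had 0.0065 without ISe animals 3 and 4. With group means subtracted the median over the 8 genes was 0.662. Of the 8, TDRD1 passed by r and DND1 and DDX4 by rho. The TDRD1 adjusted p exceeded 0.05 in all but 2 of the 13 sets that leave out a calf. The part of germ cell content in the MS4A1 values was not tested.

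The other genes past the test with MS4A1 by r were GATA3 at 0.752 (adjusted p = 0.0479) and IL15 at -0.761 (adjusted p = 0.0382). GATA3 is a transcription factor of T helper cells and other tissues, and IL15 a cytokine for NK and memory T cells. Of the 13 sets that leave out a calf, GATA3 passed in 2 and IL15 in 1. By rho, MS4A1 passed with both and with NCR1, an NK cell receptor (rho 0.829, permutation adjusted p = 0.0244, r 0.683). The medians were 0.396 over macrophage genes, 0.393 over granulocyte genes (0.096 with group means subtracted), 0.293 over red blood cell genes, -0.36 over lymphoid attraction and niche genes, -0.19 over both mast cell and endothelial genes, -0.11 over Sertoli cell genes and -0.32 over Leydig cell genes. The count for MS4A1 was 0 when any of 6 single calves was left out (OSe animal 4, Mix animals 1 and 4, and ISe animals 2, 4 and 5) and reached 4 without ISe animal 3.

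**Figure D5:**
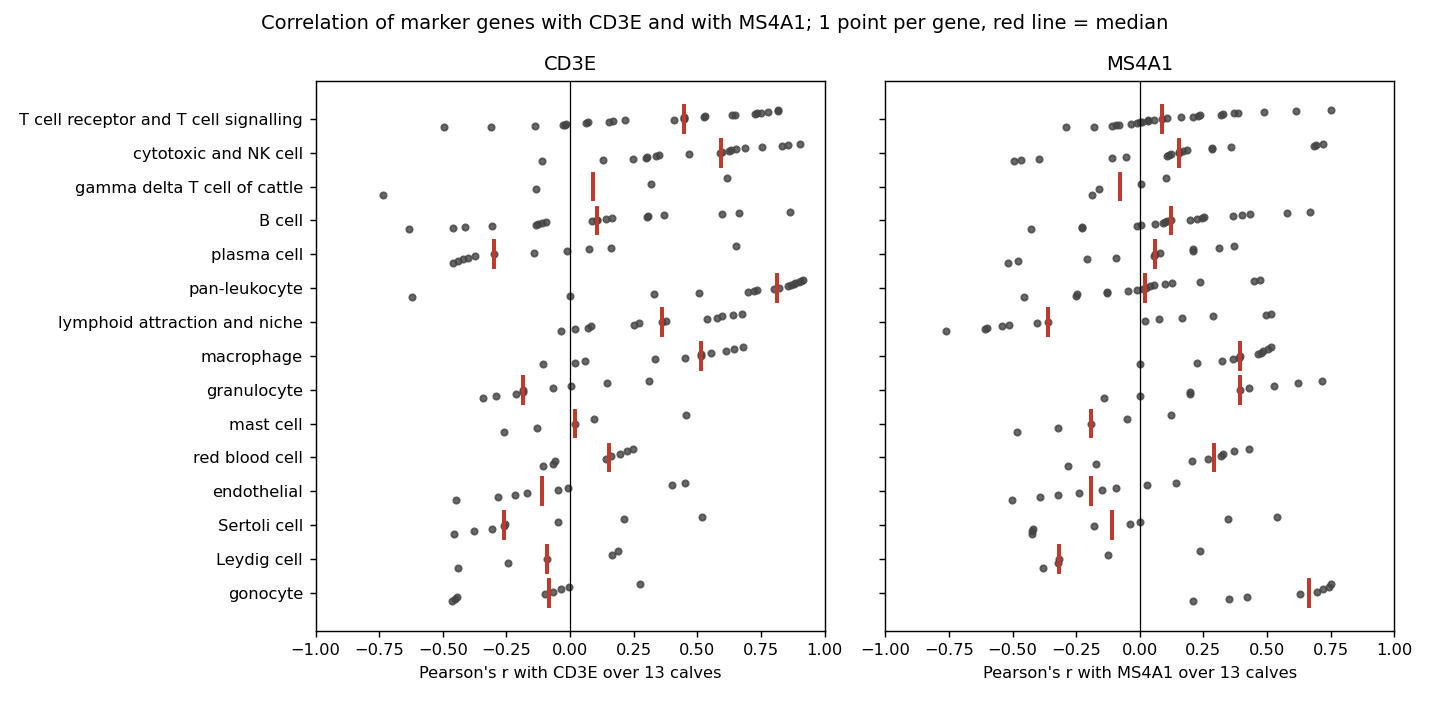
Pearson r over 13 calves between each marker gene (point) and CD3E or MS4A1, grouped by cell type list, with a red line at the list median. Pan-leukocyte genes lie high for CD3E (median 0.812) and near 0 for MS4A1 (median 0.019), and gonocyte genes lie high for MS4A1 (median 0.664).

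Over all 18077 other genes, the 5 most alike to CD3E by Pearson r over 13 calves were ZWILCH (0.917), ITGAL (0.916), TNFRSF9 (0.916), TMEM71 (0.914) and HOPX (0.913). For MS4A1 they were EPCAM (0.921), SLC23A2 (0.907), CDKL2 (0.907), PDE10A (0.905) and ZCCHC4 (0.900). These are descriptions of the highest values among many genes and carry no test.

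No gene of the wider lymphocyte lists passed the adjusted test between the selenium groups. Of 25 measured T cell receptor and signalling genes, 19 were higher and 6 lower in Mix than OSe, 18 higher and 7 lower in Mix than ISe, and 12 higher and 13 lower in OSe than ISe. The median differences were 0.07, 0.07 and -0.0003. Of all probe sets, 45.3% were higher in Mix than OSe, 51.5% in Mix than ISe and 59.5% in OSe than ISe, and these shares are the background of all such counts of signs. The gene with the smallest F test p was CD6, a T cell surface receptor, at 6.87 ± 0.14 in Mix calves, 6.62 ± 0.07 in OSe calves and 6.86 ± 0.20 in ISe calves, followed by CTLA4, an inhibitory receptor, and ICOS, a costimulatory one.

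Of 18 cytotoxic and NK cell genes, 12 were higher in Mix than OSe, 13 in Mix than ISe and 11 in OSe than ISe, and 0 passed. NCR3, an NK cell activating receptor, averaged 7.58 ± 0.16 in Mix calves, 7.85 ± 0.07 in OSe calves and 7.61 ± 0.14 in ISe calves. NCR1, another receptor of that kind, averaged 6.64 ± 0.11 in Mix calves, 6.34 ± 0.14 in OSe calves and 6.39 ± 0.20 in ISe calves, so these receptors were not ordered alike. KLRB1, an NK cell lectin receptor, averaged 6.06 ± 0.12 in Mix calves, 6.19 ± 0.28 in OSe calves and 5.85 ± 0.16 in ISe calves.

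Of 19 B cell genes, 0 passed, with median differences of 0.04 for Mix minus OSe, 0.05 for Mix minus ISe and 0.03 for OSe minus ISe. PAX5 averaged 7.34 ± 0.11 in Mix calves, 6.94 ± 0.08 in OSe calves and 7.08 ± 0.23 in ISe calves, with an unadjusted F test p of 0.0138 and an adjusted p of 0.954 in limma. TNFRSF13B, a receptor on B cells, averaged 7.18 ± 0.17 in Mix calves, 6.97 ± 0.10 in OSe calves and 7.16 ± 0.06 in ISe calves. CR2, a complement receptor of B cells, came next. Of 11 plasma cell genes 0 passed, with median differences of 0.03, 0.07 and 0.005 in the same order, and the smallest F test p belonged to IRF4, a plasma cell transcription factor, at 7.50 ± 0.16 in Mix calves, 7.47 ± 0.19 in OSe calves and 7.26 ± 0.18 in ISe calves. The genes after it were XBP1 and TNFRSF17. Of the 11, 8 were higher in Mix than ISe, and 0 had an unadjusted p under 0.05 in any comparison.

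The 16 pan-leukocyte genes (CD48, CYTIP and RUNX3 first by F test p) and the 13 genes of lymphoid attraction and niche (LTB, IL7 and IL15 first) also gave 0 calls. Their median differences were 0.02 and 0.004 for Mix minus OSe, 0.06 and 0.01 for Mix minus ISe, and 0.02 and 0.06 for OSe minus ISe. The 8 gonocyte genes, the list with the highest median correlation with MS4A1, were all higher in Mix than in either other group, with median differences of 0.25 from OSe and 0.13 from ISe and 0 calls. Their summed level was 12.50 to 13.01 in Mix, 12.18 to 12.58 in OSe and 12.16 to 12.87 in ISe. The macrophage genes, of which 10 of 11 were higher in Mix than ISe at a median difference of 0.20, gave 0 calls, as did the gamma delta T cell genes, of which 4 of 8 were measured.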

How the data were processed

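Testis RNA of 13 calves was measured on Affymetrix arrays, 1 per calf, and each array was grouped by its title. The deposited values were log2 levels per probe set made by the authors; GCOS 1.2 and Partek 6.4 were named, per the submitters' processing notes, without a step. RNA was extracted with Trizol and labelled from oligo(dT)-primed cDNA, per the labels' protocols. How background, probe summary, normalization and centring were handled is not given in the sources used here. Of 26773 probe sets, 18550 had 1 gene symbol, 595 several and 7628 none. All 10 members matched a RefSeq gene (ARS-UCD2.0) by gene ID.

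Group means were compared with limma 3.58.1 in R 4.3.3 (lmFit and eBayes over all 13 arrays, no covariate), with Benjamini-Hochberg adjustment over all probe sets and a threshold of 0.05. Single members were also tested by exact two-sided permutation. Correlations used 100000 two-sided permutations (Python 3.11.15) over calves. The fit was tested on simulated data with changes planted in 200 probe sets and independent noise in each. Such data lack the correlation between genes seen here. The members and lists were chosen with earlier results of these data known. Members are named by list; from each wider list the 3 genes with the smallest F test p, and for CD3E and MS4A1 the 5 most alike genes, are named. No extraction or scan batch was available to test. No arrays held identical values, and their number limits the precision.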

Additional observations from a re-analysis of the deposited data

Results flagged for a closer look

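In the 30 groups of 4 or 5 calves (10 members in 3 groups), 2 held a calf set apart from the others by more than Dixon's 95% critical value, where chance gives about 1 in 20. CD2 in OSe animal 3 read 6.68, against 6.49 to 6.52 in the other OSe calves. CD79B in OSe animal 2 read 6.79, against 6.43 to 6.48 in the other OSe calves, and that array also had the highest median, 7.74 against 7.61 to 7.65.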

How the results depend on the processing

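Without any 1 calf, JCHAIN stayed lower in Mix than ISe (-0.30 to -0.23) and in Mix than OSe (-0.25 to -0.18), and CD79A stayed higher in Mix than OSe (0.19, without Mix animal 1, to 0.33). GZMB ran from -0.37 to -0.20 for Mix minus ISe, the end nearest 0 being without Mix animal 3. Small differences turned sign. CD3E in OSe minus ISe was -0.0099 after quantile normalization and -0.0053 with median-centred arrays, and CD3D in Mix minus ISe was 0.018 after quantile normalization. Over single calves left out, Mix minus OSe ran from -0.089 to 0.21 (CD3D), -0.20 to 0.085 (CD3E), -0.036 to 0.20 (CD4) and -0.076 to 0.25 (CD8A). Mix minus ISe ran from -0.083 to 0.033 (CD2), -0.16 to 0.13 (CD3D), -0.13 to 0.10 (CD3E), -0.15 to 0.18 (CD8A) and -0.0042 to 0.14 (CD79A). OSe minus ISe ran from -0.15 to 0.081 (CD3D), -0.080 to 0.17 (CD3E), -0.095 to 0.14 (CD4), -0.14 to 0.039 (CD8A), -0.20 to 0.014 (GZMB) and -0.031 to 0.20 (MS4A1). Probe sets passing the adjusted test numbered 0 to 1 for the F test and for Mix minus OSe, the 1 arising without OSe animal 3, and 0 for the other comparisons. Member pairs passing numbered 2, 1 with median-centred arrays, 5 with group means subtracted (by approximate p-values) and 1 to 3 without single calves, with 3 without ISe animal 3. The labels state no pairing of calves by animal number. Same-numbered pairs correlated at -0.15 to 0.10 and different-numbered pairs at -0.26 to 0.29, values that cannot decide whether numbers pair calves. With the replicate block, 0 probe sets passed in all 3 comparisons, and in Mix minus ISe CD2 was 0.028 and CD3E 0.00050, both turned in sign. The cause of these shifts was not tested. No second probe set with a single gene symbol existed to try for any member, and JCHAIN had no value under the filter on dim probe sets. The unknown background limits what the dim JCHAIN, CD79B and CD2 values can show.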
